A study of Mus musculus with 2 samples.

Results

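The intron control probesets of a mouse whole-transcript array read RNA from inside introns, the stretches that splicing cuts out of a new transcript. In macrophages elicited with thioglycollate, these controls gave lower signals on the array of HDAC11 knockout cells than on the wild-type array, while the probesets for genes were centred near 0 on the same arrays. They were chosen as every entry whose deposited category is normgene->intron, and entries with the same pair of signals were counted a single time. This gave 5124 members from 5331 entries, out of 41345 entries in the whole table. Values are the RMA signals that the authors deposited, on a linear scale, and a difference is the log2 signal of the knockout array minus that of the wild-type array.

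Introns are present in the primary transcript, are removed in the nucleus while or soon after RNA polymerase passes, and are then mostly degraded. Signal from an intron therefore reads unspliced or partly spliced RNA, excised introns not yet degraded, and hybridisation that does not come from the intended sequence. In the naming used by the array's maker, this category covers introns of a set of genes chosen for normalisation, and such probesets serve as negative controls beside the exonic probesets of the same array. HDAC11 is a histone deacetylase, a class of enzyme that removes acetyl groups from proteins including the histones around which DNA is wound.

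The study collected peritoneal macrophages, drawn into the abdomen by thioglycollate, from wild-type mice and from mice with an HDAC11 knockout, both of the C57BL/6 strain. The cells stayed overnight in RPMI with fetal bovine serum, no treatment was given, and total RNA came from the adherent fraction. The sample descriptions call the cells freshly isolated, whereas the growth protocol gives the overnight culture. The sources used here do not give the age, the sex or the number of mice behind each RNA, nor the construct behind the knockout. With 1 array for each genotype, differences are given without replicates or p-values, and genotype cannot be told apart from the RNA preparation, the labelling reaction or the array.

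The targeted gene did not separate the arrays. Hdac11 probeset 17460879 had signals of 134.5 (wild type) and 147.2 (knockout), and a further probeset with the same symbol gave 106.3 and 110.1. The sources used here do not say whether any of their probes lies in the deleted part of the gene, so these signals check nothing, and the direction of every difference rests on the array's label. Of 27 macrophage identity genes measured, all 27 reached 121.8 on the brighter array, the median of main probesets that is used as the floor throughout. Their signals summed to 219030 in wild type and 222802 in knockout cells. Of 23 markers of lymphocytes, granulocytes, mast cells, fibroblasts, mesothelium and endothelium, 11 reached the floor, with sums over all 23 of 4353 and 4136. RMA signals do not reach 0, so no marker is listed there.

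No member carried a chromosome, a position, a strand or a gene symbol in the deposited table. The members could therefore not be placed on a chromosome, matched with a main probeset on their strand or assigned to a gene, and they are named here by probeset number. The category had 5331 entries, of which 4917 pairs of signals stood alone and 207 pairs occurred in 2 entries each, always with the same number of probes. The repeats came in blocks. A block of 136 pairs ran from probeset 17205021 to 17205295 and again, in the same order, from 17209211 to 17209485. A block of 60 pairs ran from 17201703 to 17201823 and again from 17201879 to 17201999, and a block of 10 from 17210259 to 17210279 and again from 17210281 to 17210301. The last pair was shared by 17200101 and 17210207. Only 3 members had a pair of signals that a main probeset also had. The repeated blocks had median differences of -0.38 (136 pairs), -0.30 (60 pairs) and -0.10 (10 pairs), all below 0 as in the members as a whole.

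On the wild-type array the members ran from 5.21 to 14675 with a median of 134.8, and the central 50% lay between 60.1 and 277.4. On the knockout array they ran from 4.68 to 14033 with a median of 102.0, and the central 50% lay between 41.9 and 211.9. The 33175 main probesets, those for annotated and predicted transcripts, had medians of 112.6 and 116.7. The intron distribution thus moved down as a whole between the arrays and the main distribution did not. The median member lay above the main median on the wild-type array, where 56.5% of members exceeded it, and below it on the knockout array, where 45.4% did. Strong signals were uncommon among members: 156 (3.04%) exceeded 1000 on the wild-type array and 104 (2.03%) on the knockout array, against 13.97% and 13.69% of main probesets. Signals of different probesets also depend on how well each probe binds, so these levels give no order of RNA amounts.

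**Figure D1:**
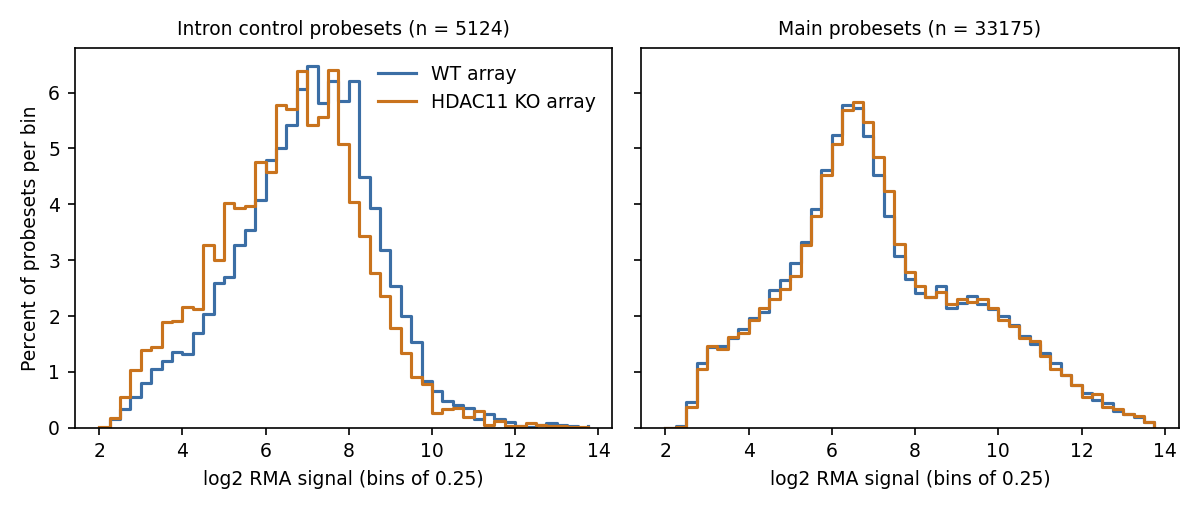
Share of probesets per bin of log2 RMA signal on the wild-type (blue) and HDAC11 KO (orange) arrays, for intron controls (left) and main probesets (right). The intron curve of the HDAC11 KO array lies to the left of the wild-type curve, with medians of 102.0 and 134.8, whereas the main curves of both arrays overlie each other.

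Of the 5124 members, 4006 were lower on the knockout array, 1112 were higher and 6 were equal. The median difference was -0.36, the central 50% lay between -0.72 and -0.05, and the extremes were -3.49 and 1.97. At 1.5-fold or more, 1691 members (33.0%) were lower, against 1.93% of main probesets and 6.13% of all probesets in the table, the members included. In the other direction 140 members (2.73%) were higher by 1.5-fold or more, against 1.46% of main probesets and 1.68% of all probesets. That larger share higher did not hold against main probesets with few probes. Of those with 4 or 5 probes, 3.09% were higher and 13.4% lower, and with 6 to 10 probes 4.71% and 5.58%. Among members with 4 probes, 2.30% were higher and 32.6% lower. With an offset of 16 added to each signal, the count of higher members was 70. At 2-fold or more, 693 members (13.5%) were lower, against 0.41% of main probesets, and 29 (0.566%) were higher, against 0.136%. Main probesets had a median of 0.03, and 44.1% of them were below 0, compared with 78.2% of members. The members were also more spread out, with an interquartile range of 0.67 against 0.28. Across the 5124 members the log2 signals of the arrays correlated with r = 0.95, and across the 33175 main probesets with r = 0.99. All points of either value share the same 2 arrays, and members may share a gene.

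**Figure D2:**
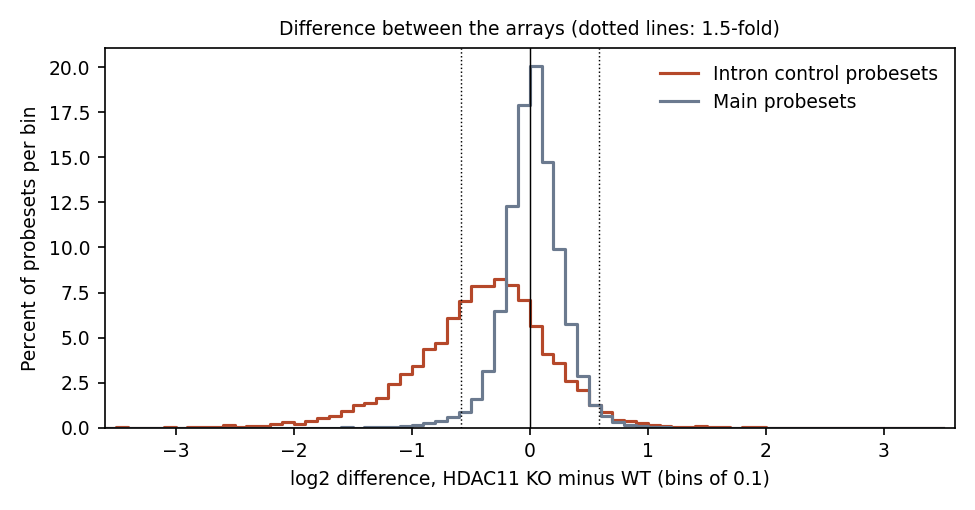
Share of probesets per bin of log2 difference, HDAC11 KO minus wild type, for intron controls (red) and main probesets (grey), with dotted lines at 1.5-fold. The intron curve has its median at -0.36 and a long arm to the left of the lower line, where 33.0% of members lie, against 1.93% of main probesets.

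The other kinds of probeset on the arrays had no such shift of their median towards lower signal on the knockout array. Main probesets without a gene symbol, 6843 pairs in all, had a median of 0.03, and 1973 probesets with no annotation had a median of -0.00. By 1.5-fold or more, 4.95% and 5.02% of these groups were lower, against 1.93% of all main probesets. In the other direction 2.95% and 2.43% were higher, against 1.46%. The 23 antigenomic background probesets, whose probes match no sequence of the genome, were higher on the knockout array in 22 cases and equal in 1, with a median of 0.33. The 13 of them with the most G and C bases, from 13 to 25 per probe, lay between 0.30 and 0.45. The members thus moved in the direction opposite to the background probesets. The 92 ERCC controls had a median of 0.16, the 39 poly-A controls 0.11 and the 18 hybridisation controls 0.11. On the wild-type array the ERCC signals reached at most 100.7 and the poly-A signals at most 119.4, both under the floor. The hybridisation controls ran from 510.6 to 12826 on that array. The part that the rise in antigenomic background signal plays in the members' values was not tested.

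The members were lower at every level of signal. When they were divided into 10 equal groups by mean log2 signal, the median difference was -0.26 in the dimmest group (signals of 5.02 to 22.2), -0.52 in the third (39.9 to 61.1), -0.39 in the fifth (86.4 to 116.1) and -0.29 in the brightest (449.7 to 14350). Main probesets in the same ranges of signal had medians between -0.02 and 0.08. The share of members lower by 1.5-fold or more went from 32.2% in the dimmest group to 44.9% in the third and 16.4% in the brightest. In the brightest group 84.8% of members were still below 0, and 0.877% of main probesets in that range were lower by 1.5-fold or more. The spread narrowed with signal, from an interquartile range of 0.88 in the dimmest group to 0.40 in the brightest. In 20 finer bins of signal, the median of members minus that of main probesets lay between -0.63 and -0.18 and was below 0 in all 20, with a median gap of -0.46.

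**Figure D3:**
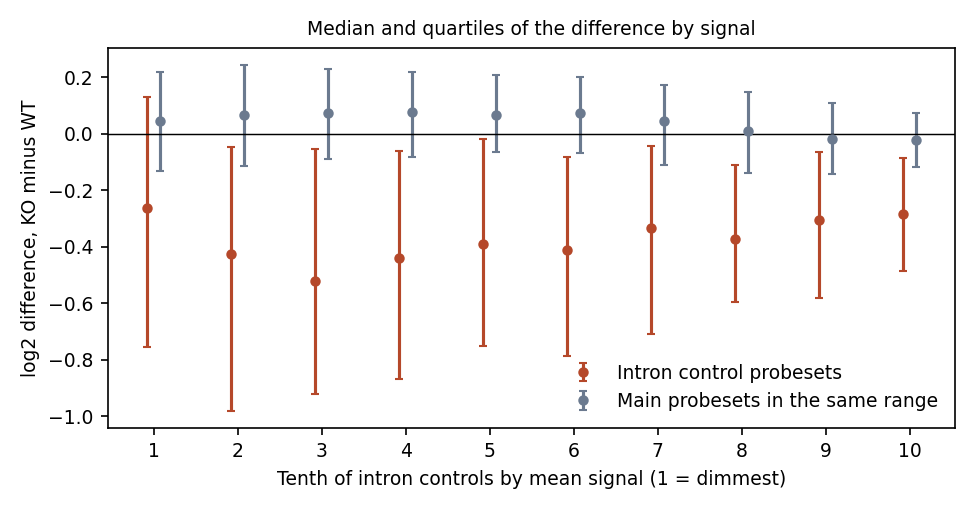
Median (points) and quartiles (bars) of the log2 difference, HDAC11 KO minus wild type, in 10 groups of intron controls of rising mean signal (red) and in main probesets of the same ranges (grey). Intron medians lie between -0.52 and -0.26 in every group, main medians between -0.02 and 0.08.

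A probeset's signal is a summary over its probes, and members have few of them. Of the members, 4309 had 4 probes, 575 had 3, 166 had 2, 68 had 1 and 6 had 5. The median difference hardly varied with this number: it was -0.31 with 1 probe, -0.32 with 2, -0.36 with 3 and -0.37 with 4. The share lower by 1.5-fold or more lay between 32.6% and 35.5% in these groups. The share higher did vary: 5.88%, 4.22% and 5.22% with 1, 2 and 3 probes, against 2.30% with 4. So did the interquartile range, at 0.79, 0.81 and 0.77 against 0.65. The 6 members with 5 probes had a median of 0.15, and 4 of the 6 were not lower. Main probesets usually have more probes, so those with 4 to 10 probes (3646) were set beside the 4-probe members. Their interquartile range was 0.42 against 0.65, and in 10 bins of signal the gap between the medians lay from -0.54 to -0.27. The closest main probesets by probe number, 97 with 4 or 5 probes, had a median of -0.10 and an interquartile range of 0.58, with 13.4% lower by 1.5-fold or more. That small group was therefore intermediate between the members and other main probesets. Of the 97, 87 are marked in the deposited table as not unique in their match. Those 87 also had a median of -0.10, with 13.8% lower by 1.5-fold or more. The share so marked was not counted over the other main probesets or the members.

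Probesets with neighbouring numbers resembled each other. Between neighbours in the order of probeset number, mean log2 signals correlated with r = 0.40 and differences with r = 0.21 (5123 pairs). For members 10 places apart the values were 0.19 and 0.13, for 50 places 0.05 and 0.10, and for 200 places -0.01 and -0.00. At 20 places the signal was still the more alike (0.15 against 0.12). The difference was the more alike at 50 places alone, where both values were small. These points share the arrays, and whether neighbours lie in the same intron or gene is not given in the table.

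When the members were read in 103 windows of 50 neighbours each (24 in the last), 98 windows had a median below 0 and 5 above. The window medians ran from -0.86 to 0.17, with quartiles of -0.50 and -0.23, and 19 windows lay at a 1.5-fold fall or beyond. The lower signal was thus spread over most of the numbering, but unevenly. The windows and stretches named next were chosen after their values were seen, and their values are a description.

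The longest low stretch covered 7 windows, from 17203881 to 17204589. Its 350 members had medians of 101.0 (wild type) and 57.2 (knockout), a median difference of -0.71, and 313 were below 0. Members elsewhere were taken between the 10th and 90th percentiles of the stretch's mean signal (17.8 to 317.4), and had a median of -0.38. Of the 350, 58.3% were lower by 1.5-fold or more, against 34.5% of those members elsewhere. The cut was not applied to the 350 themselves, so the ranges compared are not identical. Members elsewhere of like signal were chosen in this way for the stretches below too.

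The lowest medians belonged to 2 other stretches of 3 windows each. In the stretch from 17206737 to 17207037 the 150 members had medians of 143.6 and 83.3, with a median difference of -0.80, and 138 were below 0. In the stretch from 17205405 to 17205705 the medians were 150.1 and 87.1, with a median difference of -0.74, and 137 of 150 were below 0. In both stretches 62.7% of members were lower by 1.5-fold or more, and members elsewhere of like signal had medians of -0.38 and -0.39.

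The opposite was found from 17201315 to 17201619, where 3 successive windows had medians above 0. The 150 members there had a median of 51.7 in wild type (5.24 to 710.4) and 51.6 in knockout (5.74 to 690.4). Their median difference was 0.13, with 90 above 0, 16 lower and 17 higher by 1.5-fold or more. Members elsewhere of like signal had a median of -0.43, and the share lower by 1.5-fold or more was 39.6%. A further 100 members from 17206011 to 17206217 had medians of 77.9 and 78.5, a median difference of 0.07 and 54 above 0. The signals of the arrays thus covered nearly the same range in the first of these stretches, and the spread of the differences in both (interquartile ranges of 0.54 and 0.56) was no wider than that of the members as a whole.

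**Figure D4:**
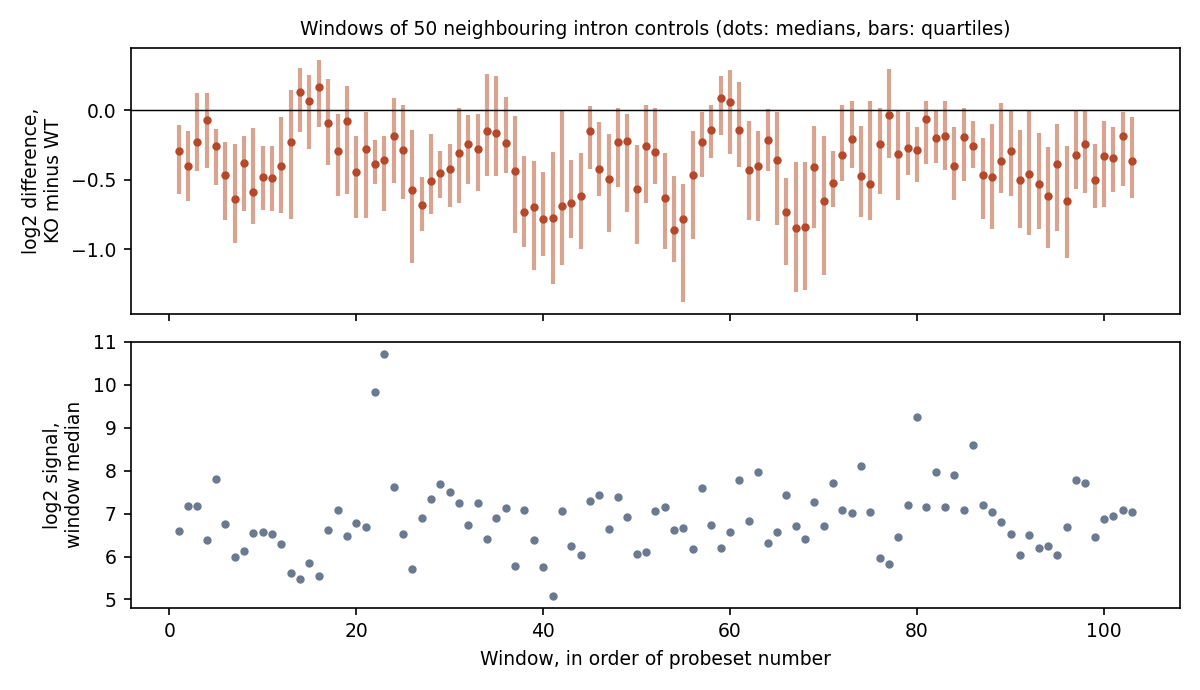
Median (dots) and quartiles (bars) of the log2 difference, HDAC11 KO minus wild type, in 103 windows of neighbouring intron controls (upper), and the median log2 signal of the same windows (lower), in order of probeset number. Of the window medians, 98 lie below 0 and 5 above, and the window of lowest signal (median 34.0) lies in the longest low stretch, windows 38 to 44.

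The brightest members stood together. In number order, 18 successive members from 17202363 to 17202397 all exceeded the 99th percentile of mean signal (1868), out of 52 members that did so. Their wild-type signals ran from 2635 to 14675 with a median of 5536, and their knockout signals from 1911 to 14033 with a median of 4809. All 18 were lower on the knockout array, with differences of -0.47 to -0.03 and a median of -0.20, and none reached 1.5-fold. The members on either side were dimmer and lower by more: 17202361 gave 1325 and 733.9 (-0.85), and 17202399 gave 2244 and 1385 (-0.70).

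Of the 6 brightest members by mean signal, 5 lie in that run. Member 17202371 had a wild-type signal of 14675 and a knockout signal of 14033, a difference of -0.06. Member 17202373 gave 14080 and 13009 (-0.11), and 17202377 gave 11458 and 11123 (-0.04). These 3 differences were all closer to 0 than the median of all members, -0.36. Member 17202369 gave 9593 and 8857 (-0.12), 17202379 gave 9937 and 7924 (-0.33), and 17202289, the single one outside the run, gave 9242 and 8736 (-0.08). All 6 were lower on the knockout array, by less than the median of all members.

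Of the 5124 members, 2839 reached the floor on their brighter array and 2285 did not. Those at the floor had a median difference of -0.37, with 889 lower (31.3%) and 43 higher (1.51%) by 1.5-fold or more, against 1.83% and 0.748% of the 16588 main probesets at the floor. Those under it had a median of -0.35, with 802 lower (35.1%) and 97 higher (4.25%) by 1.5-fold or more. Over main probesets of any level the shares were 1.93% and 1.46%. The 8 lowest and the 8 highest members at the floor were all under it on their dimmer array. Their folds thus rest on a dim signal on 1 side, although 17207043 (513.7) and 17207039 (422.3) were well above the floor on the wild-type array.

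The lowest difference was that of 17200733, with a wild-type signal of 131.8 and a knockout signal of 11.7, or -3.49. Member 17207007 gave 125.4 and 20.9 (-2.58), and 17207043, a short way further in number, gave 513.7 and 85.8 (-2.58). Member 17207039 gave 422.3 and 87.9 (-2.26). The last 2 were the brightest of the 8 lowest on the wild-type array, and all 3 after the first lie within or just beyond the low stretch that ends at 17207037. The others of the 8 were 17209009 with 136.8 and 24.1 (-2.50), 17210125 with 151.4 and 29.6 (-2.36), 17203983 with 152.5 and 33.0 (-2.21) and 17202841 with 216.3 and 47.0 (-2.20).

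The highest differences were smaller. Member 17207963 had a wild-type signal of 51.4 and a knockout signal of 182.1, or 1.82. Member 17208333, with a single probe, gave 66.9 and 182.9 (1.45), and 17203605 gave 68.8 and 177.9 (1.37). The remaining 5 of the 8 highest were 17208751, 17208507, 17202479, 17207923 and 17201241, with wild-type signals from 62.2 to 97.1, knockout signals from 135.0 to 209.5 and differences from 0.98 to 1.19. The rule asks for the floor on the brighter array alone, so the 8 highest reached it through the knockout array and the 8 lowest through the wild-type array.

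**Figure D5:**
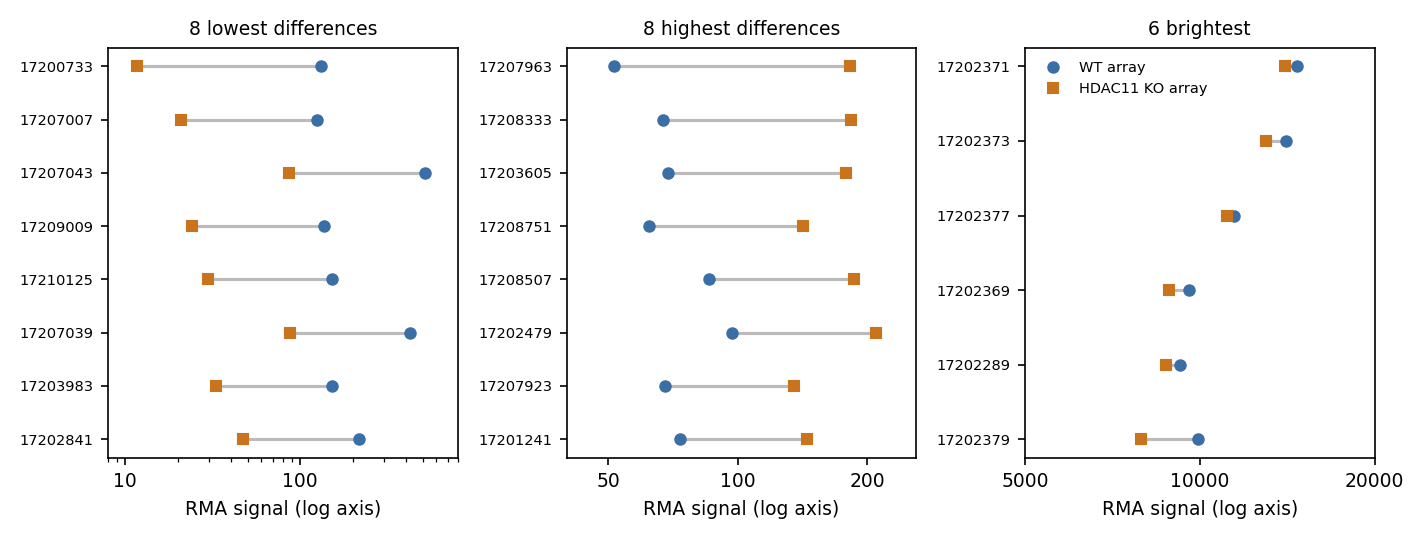
RMA signal on the wild-type (circles) and HDAC11 KO (squares) arrays, on log axes that differ between panels, of the 8 lowest, 8 highest and 6 brightest intron controls, by probeset number. The lowest differ by up to -3.49 and the highest by up to 1.82 on the log2 scale, whereas the 6 brightest differ by -0.33 to -0.04.

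A list of RNAs that stay in the nucleus was also read on these arrays. Of 9 such genes measured, 7 reached the floor, and all 7 were lower on the knockout array, with a median of -0.14 against -0.00 for the 14075 genes at the floor. Kcnq1ot1, a long antisense RNA of an imprinted region, gave 751.5 and 438.1 (-0.78) and was lower by 1.5-fold or more. Neat1, the scaffold of nuclear paraspeckles, gave 2840 and 1941 (-0.55), and Malat1, an abundant RNA of nuclear speckles, gave 9817 and 9003 (-0.12). Xist, the RNA that coats the inactive X chromosome, gave 8688 and 8458 (-0.04). Kcnq1ot1 and Neat1 lay below the median of the intron controls, and the other 5 genes at the floor, from -0.22 to -0.04, lay above it. The direction of most of these genes was known before they were listed, and their shift beside the members is a description. Any link between these RNAs and the members' signals was not tested. Among the markers of other cell types, 9 of the 11 at the floor were lower on the knockout array, with a median of -0.18. S100a8 of neutrophils (203.1 and 375.6) and Cpa3 of mast cells (168.7 and 366.0) were higher by 1.5-fold or more. The other listed markers of these cells were under the floor and mixed in direction. For neutrophils they were S100a9 (-0.11), Mpo (0.21) and Ly6g (0.47), and for mast cells Kit (0.06) and Mcpt4 (-0.07). The part of such cells in the members' signals was not tested.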

How the data were processed

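RNA of macrophages was hybridised to 2 arrays, 1 per genotype, after labelling cDNA made from 100 ng of total RNA, per the labels' protocols. The authors deposited RMA intensity values on a linear scale, made with Affymetrix Expression Console 1.2.1, per the submitters' processing notes. The authors also deposited the signals as log2 values in a series matrix, and these departed from log2 of the table by at most 5e-05. RMA corrects background, normalises and summarises probes together, so a shift shared by all probesets is not visible afterwards. The sources used here name neither the array's library files nor a genome build.

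Members were the entries of the category normgene->intron, with repeated pairs of signals merged. The members, the gene lists and the floor were chosen with earlier results of these data known. The floor is the median, over main probesets, of the signal on the brighter array (121.8). Differences were taken without an offset. Named members are, at the floor, the 8 lowest, the 8 highest and the 6 brightest; each gene list is described by its counts and median. Parts of that naming rule that need a member's gene found none. In all, 8 entries with displaced annotation were left out of every category. No probe sequence was used here. The gap within bins of signal and the count and median of differences were tested on simulated data with known shifts. The simulated members and main probesets had the same noise at every signal, unlike these data, so the test does not cover unequal spread. The other steps, windows and stretches among them, were not. Alternatives covered the source of values, scaling, low signals, repeated pairs, probe number, bins and weighting. Python 3.11.15, numpy 2.4.6, pandas 2.3.3, statsmodels 0.14.6 and matplotlib 3.10.9 were used.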

Additional observations from a re-analysis of the deposited data

How the results depend on the processing

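The median difference of the intron controls lay between -0.42 and -0.30 over 9 alternatives. These were the series matrix values, centring on main probesets, loess, quantile normalization, an offset of 16, every entry counted, members at the floor, members with 4 or more probes, and the median over windows of 50. The count lower by 1.5-fold or more lay between 1318 and 1878 over 6 of these, and the count higher between 70 and 155. An offset of 16, which shrinks differences of dim signals by construction, lowered the count of higher members to 70 and took the median gap to main probesets of like signal to -0.35. The other 4 alternatives left that gap between -0.46 and -0.37. The offset also moved the difference of the 16 named lowest and highest members towards 0, each keeping its sign. The windows of 50 and the comparison of 4-probe members with main probesets of 4 to 10 probes were chosen after seeing the data. Scaling took the median of main probesets from -0.03 (centring) to 0.06 (quantile normalization). Differences from overlapping genes and a value per gene were not run, since no member has a position or symbol. No paired analysis was possible because there is 1 array per genotype. Background correction and probe summaries were not varied.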

Other observations

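The authors' deposited table of selected probesets had 2816 entries, of which 1760 (62.5%) were intron controls and 891 main probesets. The full table had 41345 entries, of which 5331 were intron controls and 33641 main probesets. In the authors' deposited table, 1646 of the intron entries were lower on the knockout array and 114 higher. The smallest fold in the authors' deposited table was 1.495. Of the probesets reaching 1.5-fold in the full table, 443 were not in the authors' deposited table, 169 intron entries among them, and the brighter signal of every one of the 443 was at most 29.99, against at least 30.1 for those listed.

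Decimals of the signals differed by the number of probes. Among members above 50 on both arrays with unequal signals, the gap between the arrays was a whole or half-integer number of units, to within 0.001, in 37 of 42 members with 1 probe (88.1%), 1 of 94 with 2 probes (1.06%), 151 of 376 with 3 probes (40.2%) and 21 of 3048 with 4 probes (0.689%).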
